A study of Arabidopsis thaliana with 12 samples.

Results

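Whole roots of the Arabidopsis thaliana mutant myb36-1 were compared with whole roots of wild type over every locus in the count table. The comparison takes the 6 libraries whose labels name whole root, 3 of wild type and 3 of myb36-1, out of 12 libraries in the series, and the other 6 hold endodermal cells sorted from roots of the same genotypes. Both genotypes carried the Col-0 background, and all plants were harvested 6 days after exposure to light, having grown in long days on a sterile mesh laid over MS agar with sucrose. Whole roots were frozen straight after harvest, without protoplasting, and their RNA went into strand-specific libraries. The mutant is represented by a single allele, the labels do not say where its lesion lies, and the replicates are labelled biological without a statement of how many seedlings each held. The study's title places MYB36 at the switch of root cells from proliferation to differentiation, and the whole-root libraries show which transcripts differed over the entire organ. Of 33602 loci, 27342 had a read in at least 1 whole-root library, 19624 passed the low-count filter and were tested, and the remaining 13978 were not tested.

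The endodermis is the innermost layer of the root's ground tissue, and it seals the path between soil and vascular cylinder with a ring of lignin in the cell wall, the Casparian strip. MYB36 is a transcription factor of that layer which turns on the proteins that position and build the strip: CASP scaffold proteins, dirigent proteins and wall peroxidases. Roots without a working strip are known to lay down lignin and suberin at other places in the wall and to move water and mineral ions differently.

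The 6 whole-root libraries held 19812171 to 22722091 counts each, so that 3 counts, the limit which a count of 0 allows, correspond to 0.131 to 0.151 CPM (counts scaled to library size, with factors from the trimmed mean of M values). Rank correlations between replicates ran from 0.979 to 0.994, and organelle transcripts took similar shares of all 6 libraries. Of listed marker genes, 27 of 27 for xylem, 33 of 33 for root hairs and 11 of 12 for the root cap passed the low-count filter, which is a description of the libraries and no test of their label. In a bulk sample such as a whole root, fewer cells of a type and less RNA per cell cannot be told apart, and this holds for each result given here. MYB36 itself (AT5G57620) stood at 32.5, 37.4 and 34.7 CPM in wild type against 20.9, 19.5 and 18.0 in myb36-1, with no overlap (log2 change -0.84 ± 0.11 SE, edgeR adjusted p = 0.00252).

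A total of 638 genes rose and 559 fell in mutant whole roots, 6.10% of those tested (edgeR quasi-likelihood test, Benjamini-Hochberg adjusted p under 0.05). The higher calls were 3.25% and the lower calls 2.85% of the genes tested, and the median log2 fold change over all genes tested was 0.0077. In every one of the 1197 called genes the libraries of wild type and mutant did not overlap, as was so in 24.28% of all genes tested (4765). Non-overlap was also a condition for naming the largest changes. Where it is given below for a called gene, it describes the values and is no separate evidence. The median change of the called genes was 1.19 on the log2 scale for genes that rose and -0.99 for genes that fell. Changes above 2 on that scale were found in 147 genes that rose and 72 that fell. Summed over the genes that rose, wild type held 22230 CPM and the mutant 40390, and summed over the genes that fell, 34900 and 17690. The 24 Casparian strip genes tested held 17 of the falls and no rise, and 419 of the called genes lay in any of the lists and families examined, leaving 778 in none. Omitting wild-type library 1 raised the number of calls to 1876, with 817 higher and 1059 lower, so that falls then outnumbered rises. Omitting wild-type library 3 lowered it to 596, and omitting mutant library 1, 2 or 3 lowered it to 652, 651 or 594. A joint fit with the sorted libraries called 142 genes. Calls described below as holding throughout were made under each of 14 alternative settings.

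**Figure D1:**
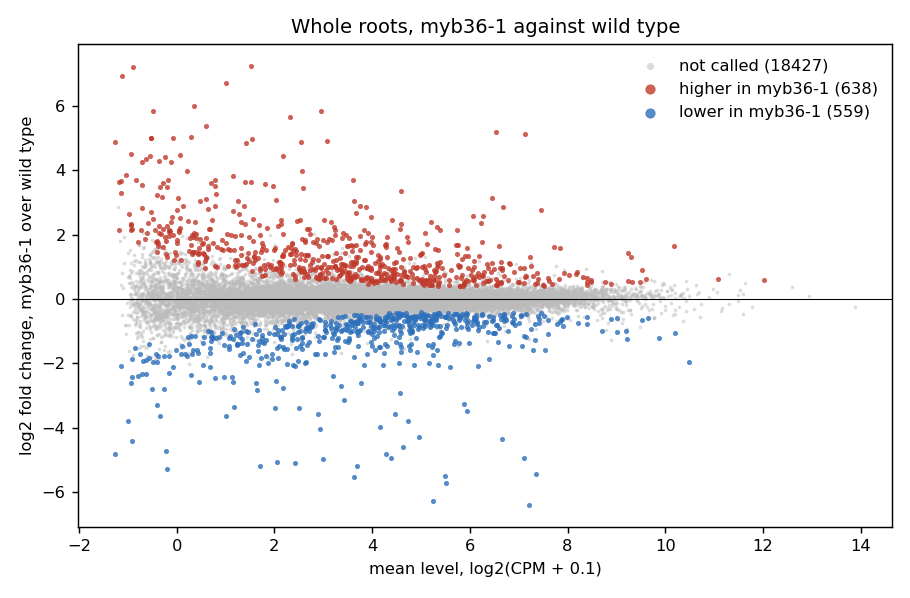
Log2 fold change of myb36-1 over wild type in whole roots (vertical axis) against mean level as log2(CPM + 0.1) (horizontal axis) for each of the 19624 genes tested, with the 638 genes that rose, the 559 that fell and the genes not called in separate colours. Called genes are found from low to high levels, and the fitted changes of genes at the left, with few counts, depend on the prior count.

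Among called genes that reached 5 CPM in a genotype and lay outside the Casparian strip list, most of the largest rises were in oxidative enzymes of the cell wall. The largest falls were spread over genes of different annotated families. The laccase gene LAC12 (AT5G05390, chromosome 5, 1594685 to 1597042), whose family polymerises monolignols with oxygen, went from 0.435, 0.234 and 0.0938 CPM to 14.8, 17.2 and 13.3 (log2 change 5.83 ± 0.32 SE, edgeR adjusted p = 1.07e-05). The peroxidase gene AT2G18150 (chromosome 2, 7892034 to 7893709) stood at 7.01, 2.76 and 4.92 CPM in wild type against 148, 194 and 201 in myb36-1 (log2 change 5.20 ± 0.29 SE, edgeR adjusted p = 1.31e-05). Its relative AT4G36430 (chromosome 4, 17204385 to 17206033) was at 11.4, 6.37 and 5.16 CPM in wild type against 222, 265 and 327 in myb36-1 (log2 change 5.14 ± 0.30 SE, edgeR adjusted p = 1.41e-05). Every mutant library of these 3 genes lay more than 10 times above the highest wild-type library. AT5G19880, another peroxidase gene, had 2 counts over the wild-type libraries and 338 over the mutant ones, a ratio of 182 with an exact 95% interval of 50.1 to 1513 (edgeR adjusted p = 9.23e-05). A further peroxidase gene, AT1G49570, rose from 0.305, 0.468 and 0.328 CPM to 9.10, 10.6 and 13.5 (log2 change 4.90 ± 0.26 SE, edgeR adjusted p = 1.07e-05). The remaining genes among the 8 largest rises were the chitinase gene AT2G43620, the cytochrome P450 gene CYP706A1 and the transcription factor gene MYB15, each described with its family below.

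The peroxidase genes AT2G18150 and AT4G36430 share a stretch of 13 bases in their promoters, TACCAAACCCAAG, written in capitals in the sequences that follow. They are shown because the pair moved together. Each is the 250 bases before the annotated gene start, read 5′ to 3′ on the gene's own strand from the RefSeq TAIR10.1 genome, chr2:7893710-7893959 (minus strand) and chr4:17206034-17206283 (minus strand). The stretch begins 136 bases before the start of AT2G18150 and 114 bases before that of AT4G36430.
AT2G18150: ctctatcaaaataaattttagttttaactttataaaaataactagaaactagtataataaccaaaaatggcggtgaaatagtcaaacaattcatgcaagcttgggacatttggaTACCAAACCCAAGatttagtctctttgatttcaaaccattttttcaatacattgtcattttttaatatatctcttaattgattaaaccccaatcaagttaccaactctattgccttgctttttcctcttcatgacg
AT4G36430: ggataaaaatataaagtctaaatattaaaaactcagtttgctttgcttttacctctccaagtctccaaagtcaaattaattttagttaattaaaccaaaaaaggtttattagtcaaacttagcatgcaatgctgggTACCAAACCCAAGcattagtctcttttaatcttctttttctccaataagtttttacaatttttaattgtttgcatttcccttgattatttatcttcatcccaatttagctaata
It was chosen as the longest run that these 2 windows share, so its presence in both was fixed in advance. Other pairs of genes were not compared, so how often a pair shares such a run is not known. Among the promoters of 19471 tested genes, the same 13 bases were found in these 2 alone, which is 0.0103%. AT1G49570, the peroxidase gene with a rise of 4.90, was not among them. The first 12 of these bases were in 6 promoters, which include that of AT1G43020, a gene that fell. The match is a description of the sequence and not of a site or a cause.

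Genes with the largest falls outside the Casparian strip list dropped to a few hundredths of their wild-type level. AT1G43020, of unknown function, stood at 22.6, 25.7 and 23.4 CPM in wild type against 0.650, 0.252 and 0.620 in myb36-1 (log2 change -5.54 ± 0.24 SE, edgeR adjusted p = 2.75e-06). The leucine-rich repeat kinase gene AT2G15300 stood at 22.7, 30.1 and 21.9 CPM in wild type against 0.700, 0.706 and 0.620 in myb36-1 (log2 change -5.20 ± 0.21 SE, edgeR adjusted p = 2.54e-06). In both, the mutant libraries were all below 1 CPM and the wild-type libraries all above 20. SCPL13, which encodes a serine carboxypeptidase-like protein, fell by 5.18 on the log2 scale, AT1G71740 by 5.09 and the lipase gene GLIP2 by 5.07. AT1G23160, annotated in the GH3 family of enzymes that attach amino acids to auxin and other small acids, went from 15.4, 16.6 and 13.8 CPM to 0.550, 0.353 and 0.525 (log2 change -4.99 ± 0.21 SE, edgeR adjusted p = 2.73e-06). AT5G52790, a CBS domain gene, fell by 4.94, and AT2G40113, annotated as a Pollen Ole e 1 allergen and extensin family gene, by 4.59. All 8 of these calls held throughout.

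In absolute level, 3 of the 5 largest gains were in enzymes of primary metabolism and the largest losses in genes for a peroxidase, a major latex protein, a TRAF-like protein and a water channel. SAHH2, which encodes an enzyme that recycles the by-product of methylation reactions, stood at 427, 327 and 330.0 CPM in wild type against 927, 793 and 954 in myb36-1 (log2 change 1.30 ± 0.14 SE, edgeR adjusted p = 0.000715). AT5G17920, annotated as a methionine synthase that makes methionine without cobalamin, stood at 3428, 3469 and 3060 CPM in wild type against 4638, 4941 and 5548 in myb36-1 (log2 change 0.60 ± 0.13 SE, edgeR adjusted p = 0.0248). Both enzymes belong to the same methyl cycle. The aldolase gene FBA8 of glycolysis rose by 0.64 (edgeR adjusted p = 0.0450) and the arabinogalactan protein gene AGP30 by 1.42 (edgeR adjusted p = 0.00502). The 18S ribosomal RNA locus AT3G41768 was at 498, 677 and 503 CPM in wild type against 1645, 761 and 2833 in myb36-1, and 94.3% of its 50-base windows occur elsewhere in the genome, so its value is uncertain. Among the losses, AT5G26260, a TRAF-like gene, went from 1039, 1603 and 1290 CPM to 533, 517 and 646 (log2 change -1.21 ± 0.17 SE, edgeR adjusted p = 0.00330). The peroxidase gene AT3G32980 was at 1276, 4087 and 1458 CPM in wild type against 392.3, 540.0 and 834 in myb36-1, where wild-type library 2 stood far above the other wild-type libraries (log2 change -1.95 ± 0.44 SE, edgeR adjusted p = 0.0330). MLP34, a gene of the major latex protein family, fell by 1.06 on the log2 scale, and AT1G62480, annotated as a vacuolar calcium-binding protein, by 0.99. The call of AT5G17920 was lost with wild-type library 3 or mutant libraries 2 or 3 omitted (edgeR adjusted p = 0.0837 to 0.122). Leaving out wild-type libraries 2 or 3 or mutant libraries 1, 2 or 3 ended the call of FBA8 (edgeR adjusted p = 0.0881 to 0.189). The authors' deposited table of gene tests gave a q of 0.737 for AT5G17920 and 0.493 for FBA8, and one of 3.22e-05 for SAHH2. The call of AT3G41768 was lost with wild-type libraries 1 or 3 or mutant libraries 1 or 3 omitted (edgeR adjusted p = 0.0532 to 0.152). Leaving out mutant libraries 1, 2 or 3 ended the call of AT3G32980 (edgeR adjusted p = 0.0745 to 0.127).

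Wall-oxidising families split in both directions. Of 56 class III peroxidase genes tested, 15 rose and 11 fell, with a median log2 fold change of 0.27. These enzymes use hydrogen peroxide to cross-link phenolics and wall proteins, and 4 of the 8 largest rises given above belong to them. PER9, a peroxidase of the Casparian strip, was the member with the largest fall (-5.50). Of 16 laccase genes, 3 rose and 2 fell. LAC5 went from 14.2, 18.1 and 19.8 CPM to 40.7, 51.9 and 46.0 (log2 change 1.41 ± 0.15 SE, edgeR adjusted p = 0.000605). LAC13 stood at 12.8, 23.3 and 16.8 CPM in wild type against 43.8, 53.8 and 37.7 in myb36-1 (log2 change 1.36 ± 0.21 SE, edgeR adjusted p = 0.00575). LAC3 moved the other way, at 152, 273 and 168 CPM in wild type against 65.9, 89.2 and 108 in myb36-1 (log2 change -1.17 ± 0.24 SE, edgeR adjusted p = 0.0216). Its lowest wild-type library was above its highest mutant library. Laccase calls became 3 with mutant libraries 1 or 2 omitted. The call of LAC3 was lost with mutant libraries 1 or 2 omitted (edgeR adjusted p = 0.0790 to 0.0840).

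Dirigent protein genes had more falls than rises. Of 17 tested, 8 fell and 2 rose. These proteins steer how phenolic radicals couple, and those of the Casparian strip list were among the falls: DIR16 was at 269, 333 and 279.8 CPM in wild type against 5.95, 2.12 and 2.34 in myb36-1, and DIR18 at 272, 347 and 335 CPM in wild type against 8.65, 5.80 and 7.20 in myb36-1. Neither had a mutant library within reach of wild type (edgeR adjusted p = 1.07e-05 and edgeR adjusted p = 1.03e-06). DIR5 rose, with 2 counts over the wild-type libraries and 232 over the mutant ones, a ratio of 125 with an exact 95% interval of 34.3 to 1040 (edgeR adjusted p = 0.000102). DIR9 and DIR18 overlap genes on the opposite strand, and the sources used here do not say whether counting used strand.

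Enzymes and proteins that loosen or reinforce the wall rose more often than they fell. Of 24 xyloglucan endotransglucosylase genes, whose products cut and rejoin the polymers that tether cellulose, 6 rose and 2 fell (median 0.40). XTH20 stood at 5.75, 2.95 and 5.07 CPM in wild type against 27.6, 23.6 and 28.9 in myb36-1 (log2 change 2.54 ± 0.22 SE, edgeR adjusted p = 0.000197). XTH5 stood at 15.8, 10.02 and 10.4 CPM in wild type against 42.7, 37.4 and 42.6 in myb36-1 (log2 change 1.76 ± 0.18 SE, edgeR adjusted p = 0.000513). In both genes the lowest mutant library was more than 2 times the highest wild-type library. With 1 library omitted, the count for this family became 3 with wild-type library 3 omitted, 4 with mutant library 2 omitted and 5 with mutant library 3 omitted.

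Expansins, which loosen walls without cutting polymers, had 5 rises and 3 falls among 21 tested. EXPA12 had at most 3 counts in each wild-type library and stood at 0.131, 0.0936 and 0 CPM in wild type against 1.95, 2.02 and 1.53 in myb36-1 (edgeR adjusted p = 0.000802). EXPA15 and EXPA4 rose by 1.199 and 1.06. EXPA8 fell, at 4.40, 9.88 and 6.24 CPM in wild type against 1.00, 1.71 and 0.811 in myb36-1 (log2 change -2.54 ± 0.37 SE, edgeR adjusted p = 0.00368). Expansin calls became 5 with mutant libraries 1 or 3 omitted.

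Among 36 extensin and proline-rich wall protein genes, 7 rose and 3 fell (median 0.56). EXT4, a structural glycoprotein gene of the wall, went from 111, 95.7 and 107 CPM to 396, 237 and 322 (log2 change 1.61 ± 0.18 SE, edgeR adjusted p = 0.000746), and 12.5% of its 50-base windows occur elsewhere in the genome. The count became 4 with wild-type library 3 or mutant libraries 1 or 3 omitted. Pectin methylesterases and their inhibitors had 5 rises and 2 falls among 40, and pectin lyases and polygalacturonases 5 and 3 among 56. AT4G02330, which belongs to the enzymes that strip methyl groups from pectin, stood at 3.66, 2.90 and 3.05 CPM in wild type against 22.6, 26.6 and 22.0 in myb36-1 (log2 change 2.88 ± 0.15 SE, edgeR adjusted p = 1.07e-05). Its mutant libraries were all more than 5 times above wild type and the call held throughout. The inhibitor gene UNE11 showed a narrow spread, with 23.3, 23.2 and 22.5 CPM in wild type against 44.7, 44.2 and 43.5 in myb36-1 (log2 change 0.94 ± 0.10 SE, edgeR adjusted p = 0.000514). PME44 fell by 1.84 on the log2 scale. The counts of pectin lyases became 3 with wild-type library 3 or mutant libraries 1, 2 or 3 omitted. Of 43 arabinogalactan and fasciclin-like protein genes, 2 rose and 1 fell, which is 6.98% called and close to the 6.10% of all genes tested. Their count became 9 with wild-type library 1 omitted. That of pectin methylesterases and inhibitors became 11 with wild-type library 2 omitted.

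With all 6 libraries in the fit, defence genes rose without falls in several lists. Of 32 genes of the salicylic acid and immune response, 12 rose and none fell (median 0.41). FMO1, which makes the mobile immune signal N-hydroxypipecolic acid, stood at 0.566, 0.468 and 0.422 CPM in wild type against 3.75, 4.54 and 3.91 in myb36-1 (log2 change 3.05 ± 0.24 SE, edgeR adjusted p = 0.000102). PROPEP1, the precursor of a danger peptide, stood at 1.35, 3.00 and 2.63 CPM in wild type against 12.2, 11.4 and 7.82 in myb36-1 (log2 change 2.18 ± 0.29 SE, edgeR adjusted p = 0.00232). CBP60G, an activator of salicylic acid synthesis, rose by 2.77 from levels near the detection limit (edgeR adjusted p = 0.0147). No mutant library of these genes fell into the range of wild type. The summed level of the 32 genes was 790.5, 865 and 893 CPM in wild type against 968, 1021 and 959 in myb36-1. The list's count became 7 with wild-type library 3 or mutant library 1 omitted. With wild-type library 1 omitted, 11 of these genes rose and 2 fell. The call of CBP60G was lost with wild-type library 3 or mutant library 3 omitted (edgeR adjusted p = 0.0781 to 0.0803).

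Of 17 chitinase and chitinase-like genes, whose products degrade fungal walls, 7 rose and none fell (median 0.45). AT2G43620 (chromosome 2, 18093694 to 18095093) was near the detection limit in wild type, at 0.131, 0.281 and 0.141 CPM in wild type against 7.85, 9.68 and 11.2 in myb36-1 (log2 change 5.67 ± 0.30 SE, edgeR adjusted p = 1.07e-05). AT4G01700 was well expressed in both genotypes, at 52.0, 57.3 and 48.1 CPM in wild type against 92.9, 111 and 128 in myb36-1 (log2 change 1.08 ± 0.14 SE, edgeR adjusted p = 0.00176), and overlaps a gene on the opposite strand. AT2G43600, in the same cluster of chitinase genes, rose by 1.49, and AT1G56680 by 1.26. Chitinase calls became 3 with wild-type library 3 or mutant library 3 omitted and 4 with mutant library 2 omitted. With wild-type library 1 omitted, 6 chitinase genes rose and 1 fell. The call of AT1G56680 was lost with wild-type library 3 or mutant libraries 1 or 3 omitted (edgeR adjusted p = 0.0857 to 0.125).

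The promoter of AT2G43620 is shown because it holds 3 copies of TTGAC, the core of the W box bound by WRKY factors, written in capitals. It is the 250 bases before the gene start at chr2:18095094-18095343 (minus strand) of the RefSeq TAIR10.1 genome, read 5′ to 3′ on the gene's strand.
AT2G43620: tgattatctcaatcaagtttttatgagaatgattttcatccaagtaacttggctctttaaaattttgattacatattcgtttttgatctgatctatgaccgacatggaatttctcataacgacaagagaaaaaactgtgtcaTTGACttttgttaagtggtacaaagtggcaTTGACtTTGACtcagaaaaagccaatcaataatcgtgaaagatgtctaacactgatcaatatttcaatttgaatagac
TTGAC on either strand was found in this window in 45.3% of the 19471 promoters of tested genes, in 51.5% of 637 promoters of genes that rose and in 44.7% of 559 of genes that fell. Of the 8 largest rises, 4 held it, as did 5 of the 8 largest falls. Among those falls, AT2G40113 held 4 copies and AT1G71740 held 3, as many as AT2G43620 or more. The G box CACGTG was in 5.97% of promoters of genes that rose and 9.66% of those of genes that fell, against 7.17% of all, and the GCC box GCCGCC in 1.88%, 0.537% and 1.95%. These are shares of letter matches and were not tested.

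Most transcription factor genes were not called. Among the calls, rises outnumbered falls in WRKY and NAC genes, and falls outnumbered rises in basic helix-loop-helix genes. Of 54 WRKY genes, many of which act in immunity, 9 rose and 2 fell. WRKY30 stood at 0.174, 0.562 and 0.375 CPM in wild type against 4.20, 5.70 and 4.15 in myb36-1 (log2 change 3.65 ± 0.34 SE, edgeR adjusted p = 0.000307). WRKY71 stood at 0.871, 0.328 and 0.328 CPM in wild type against 6.30, 7.51 and 5.06 in myb36-1 (log2 change 3.59 ± 0.35 SE, edgeR adjusted p = 0.000375). Wild-type libraries of both were below 1 CPM and all mutant libraries were above 4. WRKY53, a factor of leaf senescence and defence, rose from 2.18, 2.67 and 2.21 CPM to 7.45, 7.96 and 7.58 (log2 change 1.70 ± 0.17 SE, edgeR adjusted p = 0.000423), and overlaps a gene on the opposite strand. WRKY46 rose by 1.63. The family's count became 4 with wild-type library 3 or mutant library 1 omitted, 5 with mutant library 3 omitted and 6 with mutant library 2 omitted. The call of WRKY46 was lost with wild-type library 3 or mutant libraries 1 or 3 omitted (edgeR adjusted p = 0.0565 to 0.0770).

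Of 101 MYB genes, 10 rose and 7 fell. MYB15, a regulator of lignin and scopoletin synthesis in immunity (chromosome 3, 8309209 to 8310910), stood at 0.827, 0.468 and 0.281 CPM in wild type against 18.9, 17.2 and 12.2 in myb36-1 (log2 change 4.91 ± 0.32 SE, edgeR adjusted p = 3.05e-05). The lowest mutant library was more than 10 times the highest wild-type library, and the call held throughout. MYB69, MYB31 and MYB67 rose by 3.05, 1.81 and 1.65. Of 66 NAC genes, 8 rose and 2 fell. NAC042 rose by 2.73 and NAC038 went from 5.75, 5.85 and 8.35 CPM to 20.7, 24.4 and 22.7 (log2 change 1.77 ± 0.17 SE, edgeR adjusted p = 0.000336). NAC calls became 3 with mutant library 2 omitted, 4 with wild-type library 3 or mutant library 1 omitted and 5 with mutant library 3 omitted.

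Of 92 basic helix-loop-helix genes, 1 rose and 8 fell, which is 9.78% called against 6.10% of all genes tested. The gene labelled B70 in the annotation (AT4G21340) stood at 17.1, 18.6 and 17.7 CPM in wild type against 2.4, 3.23 and 2.53 in myb36-1 (log2 change -2.71 ± 0.16 SE, edgeR adjusted p = 1.44e-05). AT4G28790 fell by 2.58 and AMS, known as a regulator of pollen wall formation, by 2.80, the latter from about 1 CPM. PRE5, which encodes a small member that promotes cell elongation, was the sole rise (3.18). The fall of B70 held throughout, and the family's count became 5 with mutant library 3 omitted and 16 with wild-type library 1 omitted.

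Synthesis genes of nitrogen- and sulfur-containing defence metabolites had more rises than falls. Of 20 glucosinolate genes, 11 rose and 1 fell, with a median log2 fold change of 0.99. CYP81F2, which hydroxylates indole glucosinolates, went from 2.00, 0.890 and 2.21 CPM to 18.7, 25.1 and 23.5 (log2 change 3.71 ± 0.27 SE, edgeR adjusted p = 6.73e-05). BCAT4, MAM1 and IPMI2 serve the side-chain elongation of methionine-derived glucosinolates. BCAT4 stood at 1.22, 0.375 and 1.36 CPM in wild type against 11.6, 7.56 and 13.2 in myb36-1 (log2 change 3.44 ± 0.37 SE, edgeR adjusted p = 0.000688). MAM1 stood at 3.22, 0.983 and 3.19 CPM in wild type against 14.5, 11.2 and 14.9 in myb36-1 (log2 change 2.45 ± 0.34 SE, edgeR adjusted p = 0.00312). IPMI2 stood at 8.88, 3.84 and 4.597 CPM in wild type against 26.2, 23.0 and 23.2 in myb36-1 (log2 change 2.06 ± 0.27 SE, edgeR adjusted p = 0.00205). In each of the 4 genes the mutant libraries were more than 2 times above the highest wild-type library. The summed level of the list was 1139, 1614 and 1491 CPM in wild type against 1483, 1459 and 1506 in myb36-1.

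Of 10 genes of camalexin and indole phytoalexin synthesis, 5 rose and 1 fell (median 0.50). PAD3, the enzyme of the last step to camalexin, stood at 4.27, 1.97 and 4.36 CPM in wild type against 17.9, 28.6 and 30.3 in myb36-1 (log2 change 2.85 ± 0.30 SE, edgeR adjusted p = 0.000601). CYP71A12, an earlier P450 of that route, had a few counts in each wild-type library and rose to between 1.41 and 2.53 CPM (edgeR adjusted p = 0.00102). MYB51, a regulator of indole glucosinolates, rose by 0.99. GSTF6 stood at 11.9, 21.6 and 20.7 CPM in wild type against 113, 184 and 177 in myb36-1 (log2 change 3.13 ± 0.26 SE, edgeR adjusted p = 0.000156), and GSTF7, its neighbour in sequence, rose by 2.57. Both share 10.3% and 10.04% of their 50-base windows with other places in the genome. The count for this list became 3 with wild-type library 3 or mutant library 2 omitted. The call of MYB51 was lost with wild-type library 3 or mutant libraries 1, 2 or 3 omitted (edgeR adjusted p = 0.0786 to 0.111).

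In 45 glutathione S-transferase genes, 6 rose and 5 fell. GSTU12 had 2 counts over the wild-type libraries and 141 over the mutant ones, a ratio of 76.1 with an exact 95% interval of 20.7 to 635 (edgeR adjusted p = 0.000194). Of 152 cytochrome P450 genes, 17 rose and 13 fell. The CYP706A genes split by place, a pattern chosen after its values were seen. CYP706A1 and CYP706A2, neighbours on chromosome 4, rose by 4.98 and 5.37, while CYP706A4, CYP706A5, CYP706A6 and CYP706A7, a second cluster on the same chromosome from 7307737 to 7319774, fell by 0.66, 1.18, 2.13 and 0.70. CYP706A1 stood at 0.218, 0.0936 and 0.188 CPM in wild type against 4.45, 5.75 and 6.15 in myb36-1 (edgeR adjusted p = 2.59e-05), and CYP706A7 at 73.4, 87.7 and 101 CPM in wild type against 46.6, 59.99 and 54.5 in myb36-1 (edgeR adjusted p = 0.0210). The first pair shares 46.6% and 60.4% of its 50-base windows with other places in the genome, so how reads were divided between them is uncertain. With 1 library omitted, P450 calls became 18 with mutant library 3 omitted, 19 with wild-type library 3 omitted and 52 with wild-type library 1 omitted and glutathione S-transferase calls 7 with mutant library 1 omitted. The call of CYP706A5 was lost with wild-type library 3 or mutant libraries 1, 2 or 3 omitted (edgeR adjusted p = 0.0901 to 0.145). Leaving out wild-type library 3 or mutant libraries 1 or 3 ended the call of CYP706A7 (edgeR adjusted p = 0.0824 to 0.0976).

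Lectin and receptor genes held different shares of calls. Among 25 jacalin lectin genes, 6 rose and none fell, with AT1G33790 at 5.23, 3.46 and 4.27 CPM in wild type against 15.8, 15.2 and 17.9 in myb36-1 (log2 change 1.91 ± 0.17 SE, edgeR adjusted p = 0.000263). With wild-type library 1 omitted, 8 jacalin genes rose and 1 fell. Of 15 cysteine-rich receptor-like kinase genes, 4 rose and 2 fell, and of 155 leucine-rich repeat kinase genes, 8 rose and 4 fell, the latter 7.74% called and near the background of 6.10%. Of 28 receptor-like protein genes, 1 rose and 1 fell, which is 7.14% called and also near that background. The immune receptor gene AT3G04220, of the TIR class of receptors inside the cell, stood at 0.348, 0.187 and 0.141 CPM in wild type against 3.00, 2.67 and 2.86 in myb36-1 (log2 change 3.61 ± 0.32 SE, edgeR adjusted p = 0.000243). It was among 4 rises and 3 falls in 102 genes of its family, a share of calls close to the background. CRK calls became 2 with wild-type library 3 or mutant library 3 omitted and 3 with mutant libraries 1 or 2 omitted, and leucine-rich repeat kinase calls 5 with wild-type library 3 or mutant library 1 omitted, 6 with mutant library 3 omitted and 19 with wild-type libraries 1 or 2 omitted. Receptor-like protein calls became 1 with wild-type library 3 or mutant libraries 1, 2 or 3 omitted and 4 with wild-type library 1 omitted, and calls in the TIR gene's family 4 with mutant library 3 omitted.

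Ethylene, touch and calcium genes changed in part. Of 27 genes of ethylene synthesis and response, 7 rose and 3 fell. A pair of genes for the enzyme that makes the ethylene precursor moved in opposite directions. ACS7 stood at 2.70, 3.42 and 3.05 CPM in wild type against 9.45, 10.5 and 11.7 in myb36-1 (log2 change 1.79 ± 0.17 SE, edgeR adjusted p = 0.000309). ACS2 stood at 4.96, 11.3 and 6.85 CPM in wild type against 0.850, 1.41 and 1.15 in myb36-1 (log2 change -2.75 ± 0.34 SE, edgeR adjusted p = 0.00159). The libraries did not overlap in either gene, and both calls held throughout. ERF2 rose by 2.90. Calls in the ethylene list became 4 with mutant library 3 omitted, 5 with wild-type library 3 omitted and 6 with mutant libraries 1 or 2 omitted. Of 20 touch and wounding genes, 3 rose and none fell. TCH3, a calmodulin-like gene named for its response to touch, went from 3.35, 2.34 and 2.21 CPM to 19.9, 22.1 and 23.7 (log2 change 3.05 ± 0.18 SE, edgeR adjusted p = 1.68e-05). The calcium-permeable channel gene CNGC19 rose by 1.95, and the NADPH oxidase gene RBOHD by 0.63. The touch count became 5 with wild-type library 2 omitted and 6 with wild-type library 1 omitted, the latter 4 rises and 2 falls. With the replicate number as a block, 3 touch genes rose and 2 fell. The call of RBOHD was lost with mutant libraries 1 or 2 omitted (edgeR adjusted p = 0.0501 to 0.0605).

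Most flavonoid synthesis genes rose. Of 9 tested, 6 rose and none fell (median 0.70). TT4, the chalcone synthase of the entry step, stood at 104, 91.7 and 104 CPM in wild type against 202, 206 and 199 in myb36-1 (log2 change 1.02 ± 0.10 SE, edgeR adjusted p = 0.000461), with an overlapping gene on the opposite strand. FLS1, which makes flavonols, stood at 23.0, 17.9 and 21.6 CPM in wild type against 58.1, 53.7 and 70.0 in myb36-1 (log2 change 1.54 ± 0.14 SE, edgeR adjusted p = 0.000270). The mutant level was about 2 to 3 times that of wild type in both. CHIL, a helper protein of chalcone synthase, rose by 1.01 and TT7, a flavonoid hydroxylase, by 0.92. The call of TT7 was lost with wild-type library 3 or mutant libraries 1 or 3 omitted (edgeR adjusted p = 0.0751 to 0.0898). Of 18 phenylpropanoid and monolignol genes, 2 rose and none fell, which is 11.1% called against 6.10% of all genes tested. 4CL3, the CoA ligase that serves flavonoid synthesis, stood at 3.35, 3.93 and 3.19 CPM in wild type against 9.55, 8.82 and 8.49 in myb36-1 (log2 change 1.36 ± 0.16 SE, edgeR adjusted p = 0.00107), and 4CL5 rose by 0.68. The count for this list became 1 with wild-type library 3 or mutant libraries 1, 2 or 3 omitted and 7 with wild-type library 2 omitted. The call of 4CL5 was lost with wild-type library 3 or mutant libraries 1, 2 or 3 omitted (edgeR adjusted p = 0.0711 to 0.104).

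Of 23 genes of coumarin synthesis and iron deficiency, 4 rose and none fell. F6'H1, the entry enzyme of scopoletin synthesis, went from 52.8, 76.0 and 57.1 CPM to 116, 121 and 176 (log2 change 1.15 ± 0.19 SE, edgeR adjusted p = 0.00759). NAS2 and NAS4, whose enzymes make the metal chelator nicotianamine, rose by 1.00 and 1.86, and the iron and copper transporter gene OPT3 by 0.71. F6'H1 overlaps a gene on the opposite strand. The list's count became 1 with wild-type library 3 or mutant libraries 2 or 3 omitted and 2 with wild-type library 2 or mutant library 1 omitted. The call of NAS2 was lost with wild-type library 3 or mutant libraries 2 or 3 omitted (edgeR adjusted p = 0.0614 to 0.0883). Leaving out wild-type libraries 2 or 3 or mutant libraries 1, 2 or 3 ended the calls of NAS4 and OPT3 (edgeR adjusted p = 0.0632 to 0.198).

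In 25 suberin genes, 6 rose and 1 fell. Beside enzymes of the monomers, half-size ABC transporters that serve suberin export were among the rises. ABCG1 stood at 4.62, 3.42 and 4.22 CPM in wild type against 17.1, 16.2 and 17.7 in myb36-1 (log2 change 2.06 ± 0.15 SE, edgeR adjusted p = 6.96e-05). ABCG16 stood at 3.83, 9.97 and 6.05 CPM in wild type against 20.15, 27.2 and 28.4 in myb36-1 (log2 change 1.94 ± 0.29 SE, edgeR adjusted p = 0.00485). The libraries of neither gene overlapped between genotypes, and the call of ABCG1 held throughout. ABCG1 overlaps a gene on the opposite strand. Of 61 genes annotated as ABC transporters, 11 rose and 6 fell. AT4G02090, which is in this family by the wording of its annotation, showed the largest fall, at 37.0, 43.2 and 41.6 CPM in wild type against 3.499, 3.88 and 2.91 in myb36-1 (log2 change -3.56 ± 0.15 SE, edgeR adjusted p = 2.73e-06). Its exons are short, with 723 windows of 50 bases against 2424 for ABCG1, and whether it encodes a transporter was not tested. Of 50 lipid transfer protein genes, 5 rose and 3 fell, and AT3G58550 rose from 35.2, 36.7 and 61.6 CPM to 256, 298 and 362 (log2 change 2.78 ± 0.23 SE, edgeR adjusted p = 0.000160). Among 46 GDSL lipase genes, 7 rose and 5 fell. ABC transporter calls became 8 with mutant library 3 omitted, 9 with wild-type library 3 or mutant library 1 omitted and 10 with mutant library 2 omitted, and lipid transfer protein calls 5 with wild-type library 3 or mutant libraries 1 or 2 omitted and 16 with wild-type library 1 omitted. GDSL lipase calls became 6 with mutant library 3 omitted and 7 with wild-type library 3 or mutant library 2 omitted.

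**Figure D2:**
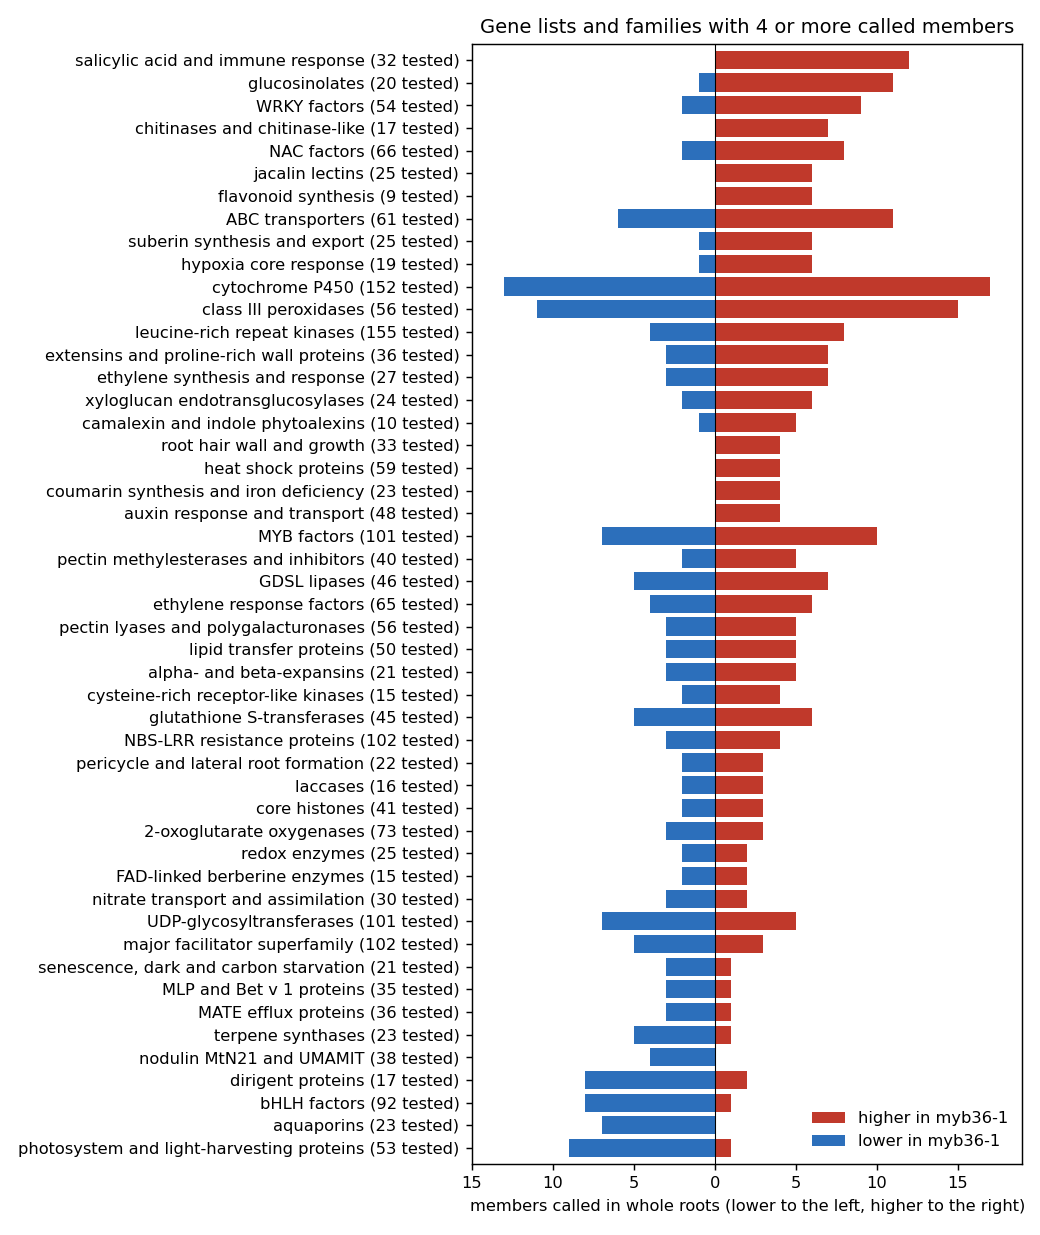
Number of members that rose (to the right) and fell (to the left) in mutant whole roots. Shown are lists and families with 4 or more called members, without the Casparian strip list. The horizontal axis counts genes called by edgeR at adjusted p under 0.05. Glucosinolate, salicylic acid and chitinase genes stand to the right with 11, 12 and 7 rises, while aquaporins stand to the left with 7 falls, and peroxidases hold 15 rises and 11 falls.

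Calls in water channel genes were falls. Of 23 aquaporin genes, 7 fell, none rose and 16 were not called (median -0.58). PIP1A, a water channel of the plasma membrane, stood at 758, 996 and 779 CPM in wild type against 292, 404 and 361 in myb36-1 (log2 change -1.26 ± 0.16 SE, edgeR adjusted p = 0.00168). NLM1, a channel of the NOD26-like subfamily, stood at 152, 249.6 and 185 CPM in wild type against 69.6, 67.0 and 77.7 in myb36-1 (log2 change -1.45 ± 0.17 SE, edgeR adjusted p = 0.00121). TIP2;3, a channel of the vacuole membrane, stood at 172, 198 and 203 CPM in wild type against 72.0, 103 and 81.0 in myb36-1 (log2 change -1.17 ± 0.14 SE, edgeR adjusted p = 0.00158). The highest mutant library was below the lowest wild-type library in all 3 genes, and PIP1A and TIP2;3 held throughout. TIP2;2 fell by 0.92 on the log2 scale. The summed level of the 23 genes was 6759, 9754 and 7616 CPM in wild type against 4245, 5390 and 5484 in myb36-1, with wild-type library 2 above the other wild-type libraries. The count of falls became 3 with wild-type library 3 omitted, 4 with wild-type library 2 or mutant libraries 1 or 3 omitted and 13 with wild-type library 1 omitted. The call of TIP2;2 was lost with wild-type library 3 omitted (edgeR adjusted p = 0.0535).

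Of 30 genes of nitrate transport and assimilation, 2 rose and 3 fell, of 19 genes of potassium, sodium and calcium transport 1 rose and 1 fell, and of 20 sulfate genes 2 rose and none fell. NRT1.5, which releases nitrate into the xylem, went from 766, 591 and 713 CPM to 342, 374 and 298 (log2 change -1.03 ± 0.14 SE, edgeR adjusted p = 0.00244). SKOR, the channel that releases potassium into the xylem, went from 47.2, 33.0 and 39.9 CPM to 13.3, 15.6 and 16.1 (log2 change -1.41 ± 0.15 SE, edgeR adjusted p = 0.000646). AMT1;2, an ammonium transporter of the endodermis and cortex, went from 68.8, 44.2 and 51.9 CPM to 19.8, 23.1 and 15.9 (log2 change -1.49 ± 0.19 SE, edgeR adjusted p = 0.00173). Mutant levels were below wild type in every library of the 3 genes, and NRT1.5 and SKOR overlap genes on the opposite strand. NIA2, the main nitrate reductase, rose from 184, 252 and 194 CPM to 361, 369 and 405 (log2 change 0.85 ± 0.14 SE, edgeR adjusted p = 0.00639). ASN1, which makes asparagine and is induced in darkness, fell from 27.1, 37.4 and 36.1 CPM to 2.00, 1.56 and 2.77 (log2 change -3.98 ± 0.22 SE, edgeR adjusted p = 1.07e-05). The nitrate count became 10 with wild-type library 1 omitted.

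SULTR3;5, a helper of sulfate transport from root to shoot, stood at 6.31, 3.98 and 6.10 CPM in wild type against 19.6, 23.1 and 20.8 in myb36-1 (log2 change 1.95 ± 0.18 SE, edgeR adjusted p = 0.000307). Its partner SULTR2;1 rose by 1.63. The sulfate count became 1 with wild-type library 3 or mutant libraries 1, 2 or 3 omitted, 5 with wild-type library 1 omitted and 6 with wild-type library 2 omitted. Those 5 were 3 rises and 2 falls. Of 38 UMAMIT genes, a family of amino acid exporters, 4 fell and none rose, which is 10.5% called against 6.10% of all genes tested. UMAMIT17 went from 37.4, 55.8 and 46.9 CPM to 9.75, 8.62 and 15.4 (log2 change -2.05 ± 0.23 SE, edgeR adjusted p = 0.000786), and UMAMIT13 fell by 1.29 on the log2 scale. Calls became 2 with wild-type library 3 or mutant library 1 omitted and 7 with wild-type library 1 omitted in this family. Those 7 were 1 rise and 6 falls. Of 25 phosphate starvation genes, 3 rose and none fell (12.0% called), with NPC4, a phospholipase, at a log2 fold change of 1.21. That count became 0 with mutant libraries 2 or 3 omitted and 1 with wild-type library 3 or mutant library 1 omitted. The call of SULTR2;1 was lost with wild-type library 3 or mutant libraries 1, 2 or 3 omitted (edgeR adjusted p = 0.0683 to 0.108). Leaving out mutant libraries 2 or 3 ended the call of NPC4 (edgeR adjusted p = 0.0507 to 0.0522).

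**Figure D3:**
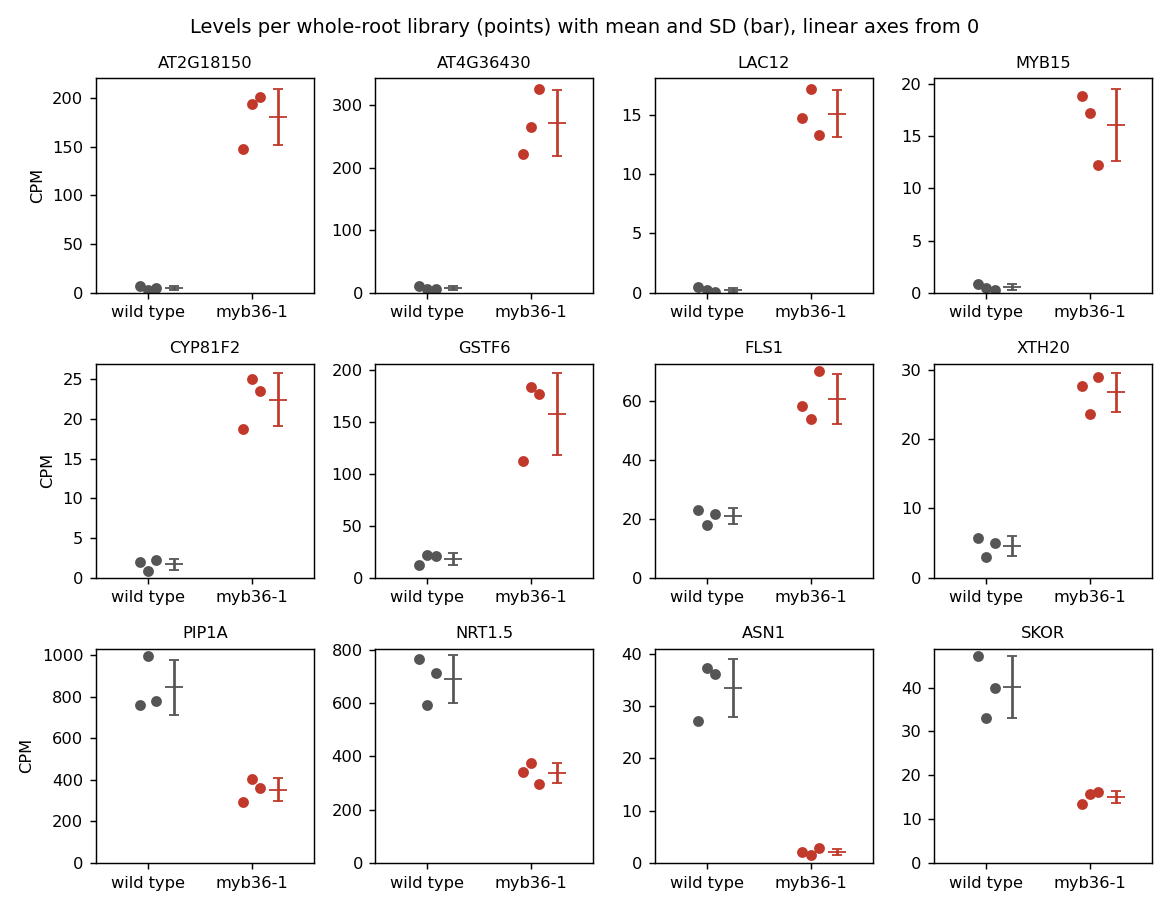
Level in each whole-root library (CPM, linear axes from 0) for selected genes that rose or fell, with wild-type and mutant libraries as separate points and the mean ± SD of each genotype beside them (n = 3). For PIP1A the wild-type libraries lie between 758 and 996 CPM and the mutant libraries between 292 and 404, and for MYB15 the mutant libraries lie between 12.2 and 18.9 CPM, above all wild-type libraries.

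Hypoxia genes had more rises than falls. Of 19 genes of the core response to low oxygen, 6 rose, 1 fell and 12 were not called (median 0.45). PCO1, an oxygen-sensing cysteine oxidase, stood at 0.435, 0.609 and 0.750 CPM in wild type against 4.10, 4.54 and 4.63 in myb36-1 (log2 change 2.88 ± 0.24 SE, edgeR adjusted p = 0.000175). ADH1, alcohol dehydrogenase of fermentation, stood at 0.740, 0.843 and 1.55 CPM in wild type against 5.10, 6.81 and 3.58 in myb36-1 (log2 change 2.303 ± 0.33 SE, edgeR adjusted p = 0.00388). HB1, a haemoglobin, stood at 1.31, 1.17 and 0.844 CPM in wild type against 4.10, 5.45 and 3.196 in myb36-1 (log2 change 1.93 ± 0.27 SE, edgeR adjusted p = 0.00332). All mutant libraries lay above wild type, at low levels in both genotypes. ERF71, a factor of the response, was the member that fell (-1.58). ADH1 overlaps a gene on the opposite strand. The fit of all 12 libraries called 0 of the 19. The call of ERF71 was lost with wild-type libraries 2 or 3 or mutant libraries 1, 2 or 3 omitted (edgeR adjusted p = 0.0604 to 0.119).

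Calls in auxin and heat shock genes were close in share to the background. Of 48 auxin genes, 4 rose and none fell, which is 8.33% called, and the count became 9 with wild-type library 1 omitted, 5 of them rises and 4 falls. TAA1, an enzyme of auxin synthesis, went from 13.4, 12.3 and 12.0 CPM to 22.6, 20.9 and 23.0 (log2 change 0.82 ± 0.11 SE, edgeR adjusted p = 0.00299). IAA1, a repressor induced by auxin, and GH3.1, which conjugates auxin, rose by 0.86 and 1.34. Heat shock genes had 4 rises and no fall among 59, which is 6.78% called, with HSP70 at 16.7, 19.2 and 12.4 CPM in wild type against 47.0, 66.3 and 45.8 in myb36-1 (log2 change 1.72 ± 0.20 SE, edgeR adjusted p = 0.000908). The heat shock count became 1 with wild-type library 3 or mutant library 1 omitted, 2 with wild-type library 2 or mutant library 2 omitted and 14 with wild-type library 1 omitted. Those 14 were 13 rises and 1 fall. In redox enzymes, 2 of 25 rose and 2 fell: the catalase gene CAT3 rose by 0.96 and the NADPH oxidase gene RBOHB fell by 0.67 on the log2 scale. The redox count became 2 with mutant library 2 omitted. The call of CAT3 was lost with mutant library 3 omitted (edgeR adjusted p = 0.0642).

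Terpenoid genes had more falls than rises, and most were not called. Of 23 terpene synthase genes, 1 rose and 5 fell (median -0.28). AT4G20210 stood at 6.27, 6.23 and 6.75 CPM in wild type against 1.70, 1.51 and 2.15 in myb36-1 (log2 change -1.84 ± 0.19 SE, edgeR adjusted p = 0.000566). BAS, a triterpene synthase, was the rise, at 5.27, 4.63 and 7.74 CPM in wild type against 17.9, 20.7 and 16.3 in myb36-1 (log2 change 1.64 ± 0.20 SE, edgeR adjusted p = 0.00135). Of 22 root triterpene and sterol genes, 1 rose and 2 fell. CYP705A1 fell from 21.1, 25.2 and 22.1 CPM to 5.75, 5.70 and 4.91 (log2 change -2.06 ± 0.14 SE, edgeR adjusted p = 3.27e-05) and its cluster neighbour PEN1, which makes the triterpene arabidiol, by 0.54. The fall of CYP705A1 held throughout. Terpene synthase calls became 3 with mutant libraries 1 or 3 omitted and 10 with wild-type library 1 omitted, and root triterpene and sterol calls 9 with wild-type library 1 omitted. The call of PEN1 was lost with wild-type library 3 or mutant library 1 omitted (edgeR adjusted p = 0.0604 to 0.0732).

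Photosystem and light-harvesting genes, included as markers of green tissue, had 9 falls and 1 rise in 53 (median -0.45). Their summed level was 743, 528 and 568 CPM in wild type against 429.6, 473 and 499 in myb36-1. All mutant sums were below the wild-type sums. LHCB3, a light-harvesting protein gene, stood at 9.10, 6.84 and 4.88 CPM in wild type against 1.65, 2.22 and 3.24 in myb36-1 (log2 change -1.55 ± 0.30 SE, edgeR adjusted p = 0.0155). The count became 1 with mutant libraries 1 or 2 omitted, 2 with mutant library 3 omitted, 3 with wild-type library 3 omitted and 16 with wild-type library 2 omitted. The call of LHCB3 was lost with mutant libraries 1 or 2 omitted (edgeR adjusted p = 0.0650 to 0.0678).

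Loci annotated as other noncoding RNA fell more often than they rose, while few long noncoding RNA loci were called. Of the 91 loci of the first class, 1 rose and 12 fell (14.3% called), and of 139 long noncoding RNA loci, 2 fell (1.44% called). The share over all genes tested was 6.10%. The following loci were chosen after their values were seen. AT5G38005 stood at 9.32, 7.87 and 9.05 CPM in wild type against 2.00, 2.42 and 2.43 in myb36-1 (log2 change -1.93 ± 0.17 SE, edgeR adjusted p = 0.000241). AT1G10682, the called noncoding RNA with the highest level, stood at 212, 366 and 217 CPM in wild type against 102, 127 and 144 in myb36-1 (log2 change -1.09 ± 0.22 SE, edgeR adjusted p = 0.0197). MIR163, 1 of 8 microRNA precursor loci tested, fell from 14.2, 15.9 and 18.1 CPM to 9.498, 10.4 and 8.87 (log2 change -0.75 ± 0.14 SE, edgeR adjusted p = 0.0140). No library of these loci crossed between genotypes. Protein-coding genes were called in 6.15% of 18970 cases, and calls were spread over the 5 chromosomes at 5.50% to 6.85% of the genes tested on each. The call of AT1G10682 was lost with mutant libraries 1, 2 or 3 omitted (edgeR adjusted p = 0.0585 to 0.0877). Leaving out wild-type library 3 or mutant libraries 1 or 3 ended the call of MIR163 (edgeR adjusted p = 0.0607 to 0.0743).

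Cell division and meristem genes held few calls. Of 28 mitosis genes, none rose and 1 fell, the B-type cyclin gene CYCB2;3, at 68.2, 62.9 and 60.3 CPM in wild type against 35.8, 37.1 and 43.6 in myb36-1 (log2 change -0.72 ± 0.11 SE, edgeR adjusted p = 0.00583), and 17.0% of its 50-base windows occur elsewhere. Of 26 S phase genes, edgeR called 0, with 1 at an unadjusted p under 0.05, and DESeq2 and limma-voom called 0 and 0. Their summed level was 785, 649 and 629 CPM in wild type against 765, 745 and 743 in myb36-1. The ranges overlapped. In 19 root meristem regulators edgeR called 0, with 7 at an unadjusted p under 0.05 (6 higher, 1 lower), and DESeq2 and limma-voom called 1 and 0. With wild-type library 1 omitted edgeR called 4 of them. Of 311 ribosomal protein genes, 1 rose and none fell. Among 41 core histone genes 3 rose and 2 fell, which is 12.2% called against 6.10% of all genes tested. The ribosomal protein count became 0 with wild-type libraries 2 or 3 or mutant libraries 1, 2 or 3 omitted and 10 with wild-type library 1 omitted. Histone calls became 1 with mutant libraries 1, 2 or 3 omitted and 2 with wild-type library 3 omitted, and mitosis calls 3 with wild-type library 1 omitted.

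Further hormone lists held few calls, near the share over all genes tested, and the starvation list held a larger share. Of 32 genes of abscisic acid and drought, none rose and 2 fell, namely NCED9, an enzyme of abscisic acid synthesis, at 5.09, 10.2 and 7.79 CPM in wild type against 2.90, 2.77 and 3.96 in myb36-1 (log2 change -1.25 ± 0.27 SE, edgeR adjusted p = 0.0255), and the dehydrin gene RAB18 (-2.05). Of 30 cytokinin response genes, the response regulator gene RR10 rose by 0.53 and RR5 fell (log2 change -0.56). Of 24 gibberellin genes, GA20OX2, a gene of gibberellin synthesis, fell (log2 change -0.84). These 3 lists were called in 6.25%, 6.67% and 4.17% of their genes. Of 21 genes of senescence, darkness and carbon starvation, 1 rose and 3 fell, which is 19.05% called against 6.10% of all genes tested. ASN1 was the largest fall, and SEN1, a gene induced in darkness, stood at 7.62, 13.6 and 6.24 CPM in wild type against 3.15, 3.23 and 3.86 in myb36-1 (log2 change -1.42 ± 0.29 SE, edgeR adjusted p = 0.0192). The abscisic acid count became 0 with wild-type library 3 or mutant libraries 1 or 3 omitted, 1 with mutant library 2 omitted, 4 with wild-type library 2 omitted and 7 with wild-type library 1 omitted. That of cytokinin became 0 with wild-type library 3 or mutant libraries 1, 2 or 3 omitted and 1 with wild-type library 2 omitted, and that of gibberellin 0 with mutant libraries 1, 2 or 3 omitted and 2 with wild-type library 1 omitted. The senescence count became 1 with mutant library 3 omitted, 2 with mutant library 2 omitted and 8 with wild-type library 1 omitted. The call of NCED9 was lost with wild-type library 3 or mutant libraries 1, 2 or 3 omitted (edgeR adjusted p = 0.0605 to 0.104). Leaving out wild-type library 3 or mutant libraries 1 or 3 ended the call of RAB18 (edgeR adjusted p = 0.0677 to 0.148). The calls of RR10 and RR5 were lost with wild-type libraries 2 or 3 or mutant libraries 1, 2 or 3 omitted (edgeR adjusted p = 0.0545 to 0.168). Leaving out mutant libraries 1, 2 or 3 ended the calls of GA20OX2 and SEN1 (edgeR adjusted p = 0.0655 to 0.115).

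In the clock, jasmonate, brassinosteroid, sugar, ER body, germin-like and transposable element lists edgeR called 0 genes. In 24 clock genes 10 reached an unadjusted p under 0.05, and DESeq2 called 5 and limma-voom 0. For 26 jasmonate genes these numbers were 9, 3 and 0, for 17 brassinosteroid genes 4, 0 and 0, and for 24 genes of sugar transport and cleavage 5, 1 and 0. At that unadjusted p, 2 clock genes were higher and 8 lower, and 5 jasmonate genes were higher and 4 lower. Brassinosteroid genes split into 3 higher and 1 lower, and sugar genes into 3 higher and 2 lower. Among 16 genes of the ER body, the store of defensive beta-glucosidases in root cells, 8 reached an unadjusted p under 0.05, and DESeq2 and limma-voom called 4 and 1. Of those 8, 1 was higher and 7 were lower. The summed level of the 16 genes was 28270, 31560 and 32490 CPM in wild type against 25490, 24510 and 27240 in myb36-1. PYK10, the main beta-glucosidase of that store, was at 15570, 15580 and 18230 CPM in wild type against 14140, 13100 and 14590 in myb36-1 (edgeR adjusted p = 0.395). For 7 germin-like genes the numbers were 2, 0 and 0, and for 7 transposable element genes 0, 0 and 0. The edgeR count of clock genes became 8, all lower, with the replicate number as a block and 2 with mutant library 2 omitted. That of jasmonate genes became 2 with wild-type library 2 omitted and 4 with wild-type library 1 omitted. Those of brassinosteroid and germin-like genes each became 2 with wild-type library 1 omitted. For sugar genes it became 1 with wild-type library 2 omitted and 2 with wild-type library 1 omitted, and for ER body genes 2 with wild-type library 2 omitted and 5 with wild-type library 1 omitted.

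Most genes in the marker lists of other root cell types were not called. Of 27 xylem differentiation genes edgeR called 0, with 7 at an unadjusted p under 0.05 (1 higher, 6 lower), and DESeq2 and limma-voom called 0 and 0. With wild-type library 1 omitted edgeR called 4. Their summed level was 1063, 1390 and 1306 CPM in wild type against 987, 1164 and 1027 in myb36-1. In 17 phloem genes 1 rose, in 12 epidermal fate genes 1 rose, in 13 ground tissue identity genes 1 rose, and in 4 cortex genes 1 fell. With 1 library omitted the counts became 0 with wild-type library 3 or mutant libraries 1 or 3 omitted and 3 with wild-type library 1 omitted for phloem, 0 with wild-type library 3 or mutant libraries 1, 2 or 3 omitted for ground tissue and 0 with wild-type libraries 2 or 3 or mutant libraries 1, 2 or 3 omitted for cortex. The epidermal gene was SUB, a receptor-like kinase of cell patterning, at 9.62, 10.8 and 13.2 CPM in wild type against 33.9, 34.2 and 33.7 in myb36-1 (log2 change 1.597 ± 0.13 SE, edgeR adjusted p = 0.000175). Of 33 root hair wall and growth genes, 4 rose and none fell (median 0.46). LRX2, a wall protein of growing hairs, stood at 13.4, 16.0 and 10.8 CPM in wild type against 27.4, 25.2 and 26.5 in myb36-1 (log2 change 0.98 ± 0.15 SE, edgeR adjusted p = 0.00492). RHS19, a root hair peroxidase, was at 40.1, 95.7 and 75.7 CPM in wild type against 139, 151 and 167 in myb36-1 (edgeR adjusted p = 0.0366). Summed, the root hair genes were at 1625, 2854 and 2208 CPM in wild type against 2718, 2773 and 3138 in myb36-1, so that wild-type library 1 was the lowest and wild-type library 2 lay inside the mutant range. Root cap genes had 2 rises and 1 fall in 11 and summed to 380.2, 678 and 513 CPM in wild type against 512, 646 and 659 in myb36-1. The part of these markers in the other results was not tested. The root hair count became 1 with wild-type library 3 or mutant libraries 1 or 3 omitted, 2 with mutant library 2 omitted, 7 with wild-type library 1 omitted and 13 with wild-type library 2 omitted, and the root cap count 1 with wild-type library 3 or mutant libraries 1, 2 or 3 omitted. With wild-type library 1 omitted, 5 root hair genes rose and 2 fell. Called shares were 12.1% for root hair genes and 27.3% for root cap genes, against 6.10% of all genes tested. The call of RHS19 was lost with wild-type library 3 or mutant libraries 1, 2 or 3 omitted (edgeR adjusted p = 0.0867 to 0.156).

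The same mutant comparison in sorted endodermis was set beside the whole root for the genes called there. In sorted cells 28.5% of 18318 genes were called, 15.6% higher and 12.9% lower. Of the 559 genes that fell in whole roots, 483 were tested in sorted cells, where 160 (33.1%) fell, 288 were not called and 35 (7.25%) rose. Of the 638 that rose, 493 were tested, and 164 (33.3%) rose, 246 were not called and 83 (16.8%) fell. A difference between the effects of both tissues was called in 28.4% of 20302 genes, and in 473 of the 1196 whole-root calls with a value. Opposite calls were found in 118 genes. The difference was called in all of them, which choosing genes called in opposite directions in the same libraries made all but certain. It is no separate evidence. In sorted cells, 8 of 11 root cap genes and 18 of 33 root hair genes fell, against 1 and none in whole roots. Touch and wounding genes had 7 rises in 19 in sorted cells. The part of these markers in the opposite calls was not tested, and sorting, protoplasting and the RNA kit also differ between both kinds of library.

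**Figure D4:**
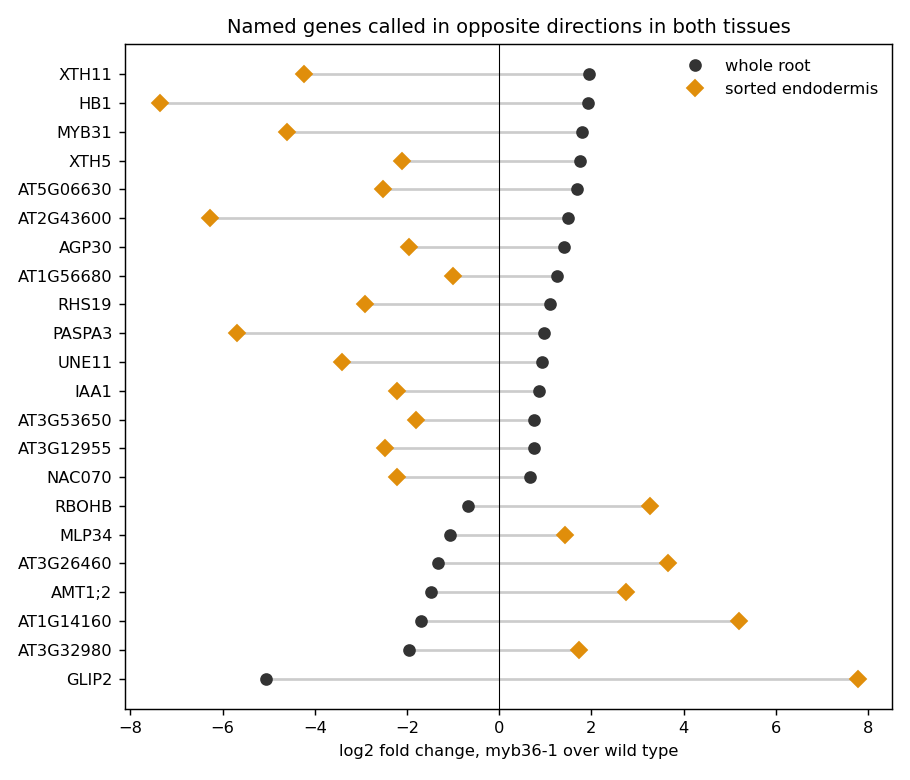
Log2 fold change of myb36-1 over wild type in whole roots (circles) and in sorted endodermis (diamonds) for the 22 named genes called in opposite directions; the grey line joins both values of a gene. HB1 had a log2 fold change of 1.93 in whole roots and -7.36 in sorted cells, and GLIP2 one of -5.07 and 7.78.

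The authors' deposited table of gene tests for whole roots, which holds 1 FPKM per genotype and a q-value, was matched by gene name and place. Of 14810 matched genes tested in both, 997 were called in the counts, and the authors' deposited table gave the same direction for all 997 and a q under 0.05 for 592. A q under 0.05 without a call in the counts was given by the authors' deposited table for 204 further matched genes.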

How the data were processed

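Strand-specific RNA libraries of whole roots (3 of wild type, 3 of myb36-1) were analysed, with 6 libraries of sorted endodermis set beside them. The authors deposited raw read counts per gene without normalization. The authors' deposited test table holds, per the file headers, 1 FPKM for each genotype with replicates pooled, a p-value and a q-value. TopHat2, SAMtools, Cufflinks, Cuffdiff and HTSeq and the build TAIR10 are named in the submitters' processing notes. Versions, roles and the strand setting of counting were not given in the sources used here. Gene names, sequences and places come from the RefSeq TAIR10.1 annotation and genome. Genes without a symbol go by their locus.

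The counts of whole roots entered edgeR 4.0.16 under R 4.3.3 (TMM factors, filterByExpr by group, quasi-likelihood F-test, Benjamini-Hochberg adjustment over all genes tested), after a check on simulated data, and a call needs an adjusted p under 0.05. The standard error (SE) of a log2 change was derived from its size and the square root of F. Levels are TMM-scaled CPM, scaled separately for whole roots and sorted cells. The difference between tissues was an interaction term over 12 libraries. Alternatives were other scaling factors, DESeq2 1.42.0, limma-voom (3.58.1), other filters, a joint fit, the replicate number as a block, and leaving out each library. Ratios of genes with 3 or fewer wild-type counts have exact 95% intervals that cover counting error only, as do the floors of 3 counts. Where members sit close to 0, the fitted fold change depends on the prior count. Replicate pairs all differed by more than sampling noise.

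Members of 41 hand-written lists (textbook knowledge) and 42 families (annotation wording) were counted against the background of all genes tested. Members, lists and tests were chosen with earlier results of these data known. Named genes follow a rule: MYB36, the 8 largest rises and falls by fold and the 5 by CPM difference outside the Casparian strip list (at least 5 CPM, no overlap), up to 4 called members per list by fold (at least 1 CPM), or, where none was called, the member of highest level, and the 4 largest differences between tissues in each direction. A value is called uncertain where over 10% of a gene's 50-base windows occur elsewhere in the genome. Beside the genes marked in the text, ASN1, BCAT4, AT3G58550, NAC042, LHCB3, RHS19 and PYK10 overlap a gene on the opposite strand. So do RAB18, AMS, PME44, RBOHB, PASPA3, AT1G14160 and 4CL5.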

Additional observations from a re-analysis of the deposited data

Results flagged for a closer look

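The effect of the mutation differed between whole roots and sorted endodermis in the genes that follow, by the edgeR interaction term over 12 libraries. The 27 genes were chosen by that term or by opposite calls, so the called difference is no separate evidence. Values are the whole-root log2 fold change minus that in sorted cells. Where a group had few or no counts, the size depends on the prior count.

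More negative effects in whole roots were found for the lipase gene GLIP2 (-13.21), the peroxidase genes AT2G41480 (-8.66) and AT3G32980 (-3.65), the exporter gene UMAMIT36 (-7.39), AT1G14160 of the family of CASP-like membrane proteins (-6.89), AT3G26460 (-4.98) and MLP34 (-2.48) of the latex protein family, the ammonium transporter gene AMT1;2 (-4.20) and the oxidase gene RBOHB (-3.93). AT1G14160 fell in whole roots from a mean of 28.8 ± 2.46 CPM to 8.91 ± 1.57 and rose in sorted cells (5.21 on the log2 scale).

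Less negative or more positive effects in whole roots were found for the wall genes XTH5 (3.90), XTH11 (6.26), UNE11 (4.37), AGP30 (3.41) and AT5G06630 (4.24), and for the chitinase genes AT1G56680 (2.28) and AT2G43600 (7.81). Root cap and root hair genes among them were NAC070 (2.93), PASPA3 (6.66) and RHS19 (4.03). The auxin genes IAA1 (3.11) and AT3G12955 (3.26), the histone gene AT3G53650 (2.59), the factor gene MYB31 (6.51) and the haemoglobin gene HB1 (9.36) also differed this way. So did AT3G11980, annotated as related to acyl-CoA reductases (9.10), AT5G54585 (9.001) and AT5G22530 (10.86), the last with 1 count over the wild-type whole-root libraries and 74 over the mutant ones. Beside these values, root cap and root hair markers fell in sorted cells, and their part in the differences was not tested. Outlying libraries were not tested for in groups of 3.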

How the results depend on the processing

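Whole-root calls numbered 1197, and 1196 with DESeq2 size factors, 1218 with upper-quartile factors, 1622 with DESeq2, 1192 with limma-voom, 1611 without a filter and 1102 with a filter at 1 CPM. They fell to 142 in 1 fit of all 12 libraries, a fit in which 185 of the 248 called genes that were named lost their call (83 of them there alone). Leaving out 1 library gave 594 to 1876 calls, the highest with wild-type library 1 omitted, while omitting wild-type library 3 gave 596 and mutant library 1, 2 or 3 gave 652, 651 or 594. Of the 248 genes, 62 were called under every alternative, 93 were lost in 3 or more, and none changed direction. The share of higher calls was 53.3%, against 51.2% with DESeq2 size factors, 43.55% with wild-type library 1 omitted and 56.4% to 61.2% with any of the others omitted.

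The labels do not say whether replicate numbers pair the libraries, and 3 libraries per genotype cannot decide it. Deviations of same-numbered wild-type and mutant libraries from their group means correlated at 0.287, 0.141 and -0.048. The first was the highest of all pairs, while wild-type libraries 2 and 3 correlated best with another number. With the replicate block, 1512 genes were called, 1153 of them shared with the 1197, and 8 of 24 clock genes were called lower, where the fit without it called 0.

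In sorted endodermis, 5225 calls became 2236 to 7017 without 1 library, the fewest when wild-type library 1, 2 or 3 was omitted (2512, 2236 or 2764). The 5758 calls of a difference between tissues became 4299 to 7880 without 1 library. Depth limits genes near 0.131 to 0.151 CPM, where a single count is a large share of the level.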
